A study of Homo sapiens with 16 samples.

Results

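Mucins are large, heavily O-glycosylated proteins that cover and lubricate the surface of the airway. The transmembrane mucins MUC1, MUC4, MUC13, MUC15, MUC16 and MUC20 are held in the apical membrane, where their long glycosylated domains form part of the glycocalyx and some of their tails take part in signalling. The gel-forming mucins MUC5AC and MUC5B are secreted, chiefly by goblet and gland cells, and give airway mucus its gel. MUC20 is also known to bind the receptor tyrosine kinase MET, and MUC4 is known as a partner of the receptor ERBB2.

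The levels of these 8 mucin genes were followed in 16HBE cells, an immortalised human bronchial epithelial line, on 16 Agilent arrays of 1 colour, whose probes are 60 bases long. 16HBE-WT cells carry wild-type MET, and 16HBE-ex14 cells were edited with CRISPR/Cas9 so that exon 14 of MET is skipped. All 4 groups held 4 arrays: 16HBE-WT and 16HBE-ex14 without hepatocyte growth factor (HGF, the ligand of MET), and 16HBE-WT+HGF and 16HBE-ex14+HGF with 20 ng/mL of it for 24 h. Every culture had first been kept 2 h without serum, and cells were grown in plastic dishes, not at an air-liquid interface. The edited cells were clone F alone, so the edit and the clone cannot be told apart. The 4 replicates of the study came from cultures separated by 1 week, and which array belongs to which culture is not stated in the sources used here. A probe was taken as a mucin probe when its gene name on the array was exactly one of the 8 symbols, which gave 15 of the 58201 probes.

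A level here is the log2 of the intensity of a probe minus the 75th percentile of its array, so that 0 marks a probe as bright as that percentile and a difference of 1 is a doubling. A probe was tested with limma where at least 4 of the 16 arrays showed it well above background by the mark of the scanner software, which left 9 mucin probes among 34604. A difference was called at a Benjamini-Hochberg adjusted p below 0.05, taken over all tested probes, with a fold change above 1.5. The 75th percentiles lay between 139.5 and 262.8 intensity units and 49% to 60.3% of the probes of an array were well above background. The lowest level still marked well above background had a group median of -4.28 and -4.23 in 16HBE-WT without and with HGF, and of -4.57 and -4.64 in 16HBE-ex14 without and with it. In such bulk RNA, fewer cells that make a mucin and less RNA per cell cannot be told apart.

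The sequences below carry the results on MUC4, MUC1 and MUC5AC, and are given 5′ to 3′ as the array files list them. Capitals mark the 12 letters that the 3 upstream MUC4 probes have in common. The remaining sequences have no marked letters.
MUC4 A_24_P239176: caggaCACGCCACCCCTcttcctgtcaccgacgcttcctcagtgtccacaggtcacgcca
MUC4 A_24_P239177: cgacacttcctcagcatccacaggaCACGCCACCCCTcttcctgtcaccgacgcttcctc
MUC4 A_33_P3417281: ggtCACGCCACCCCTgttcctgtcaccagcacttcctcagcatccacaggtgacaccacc
MUC4 A_24_P208825: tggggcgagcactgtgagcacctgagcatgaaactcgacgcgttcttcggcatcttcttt
MUC1 A_23_P137856: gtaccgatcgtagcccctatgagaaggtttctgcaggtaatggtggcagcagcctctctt
MUC1 A_33_P3332215: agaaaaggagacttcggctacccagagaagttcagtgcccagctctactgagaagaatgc
MUC5AC A_33_P3216570: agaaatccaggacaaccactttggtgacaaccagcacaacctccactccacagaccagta

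Of the 8 mucin genes, MUC1 and MUC4 each had a probe well above background on all 16 arrays. MUC5AC reached it on 14 arrays at most, MUC15 on 4 and MUC20 on 1. MUC5B, MUC13 and MUC16 were well above background on 0 of 16 arrays with all their probes. Those 3 genes were therefore not measured here, which does not show that their transcripts are absent. No mucin spot was saturated or marked as an outlier.

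**Figure D1:**
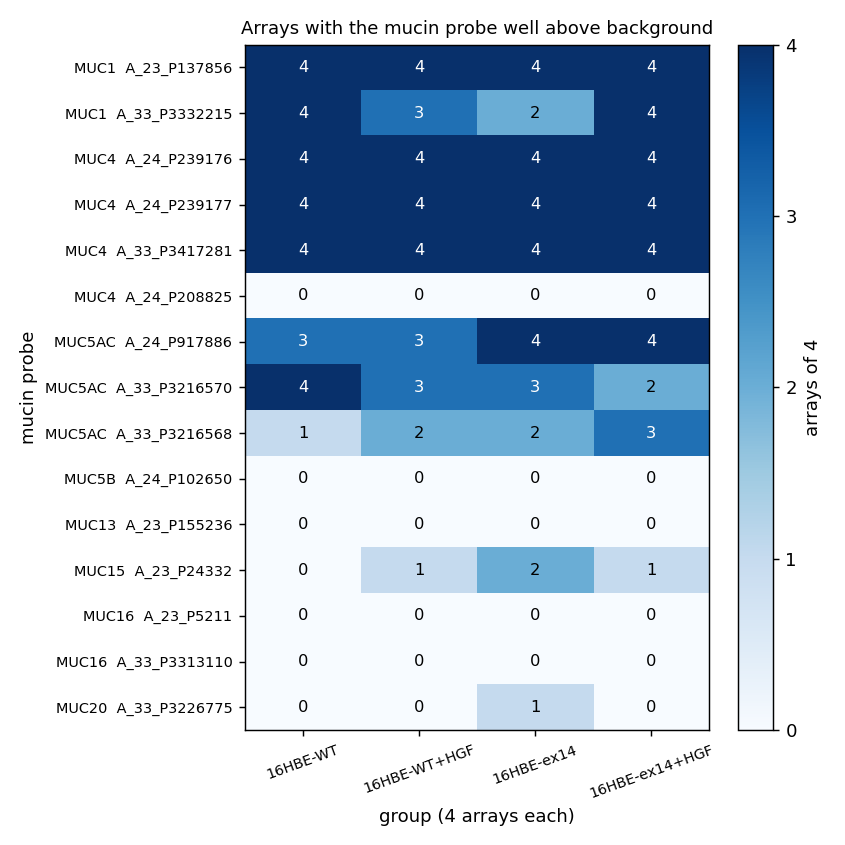
Number of arrays, of 4 in each group, on which each of the 15 mucin probes was well above background. MUC1 has 1 probe and MUC4 has 3 probes at 4 in every group, while the fourth MUC4 probe and the probes of MUC5B, MUC13 and MUC16 are at 0 throughout.

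HGF moved no mucin probe past the limits. In 16HBE-WT cells 0 of 9 mucin probes were called by limma and 0 had an unadjusted p below 0.05, where 0% of all 34604 probes were called and 1694 had such a p. In 16HBE-ex14 cells 0 of 9 were called and 0 had an unadjusted p below 0.05. Of all probes 2% were called there and 14.2% had such a p. Beyond counting calls, the HGF differences of the 9 probes ran from -0.37 to 0.41 in 16HBE-WT, with a median of 0.10 against 0.04 for all tested probes. In 16HBE-ex14 they ran from -0.36 to 0.45, with a median of 0.10 against 0.05.

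Between the genotypes the counts of mucin probes lay near the shares of all probes and are not read as a finding about the mucins. Without HGF 1 of 9 mucin probes was called, a dim MUC1 probe that was lower in 16HBE-ex14, where 9.4% of all probes were called and 4.89% were called as lower. With HGF 0 of 9 were called by limma and 3 had an unadjusted p below 0.05. Of all probes 10.8% were called there and 31.7% had such a p. The difference between the HGF responses of the genotypes was called for 0 of 9 mucin probes, with 0 at an unadjusted p below 0.05, and for 0% of all probes, 1599 of which had such a p.

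**Figure D2:**
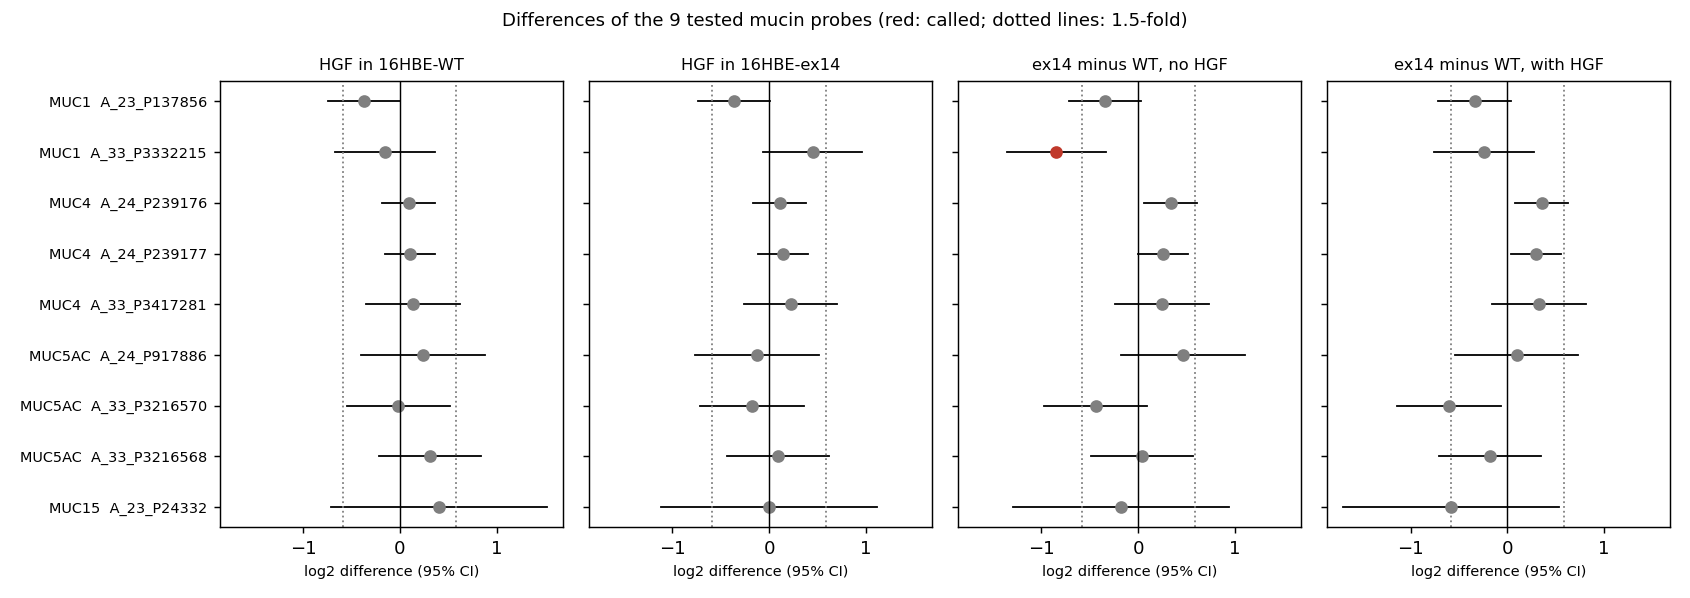
Log2 differences of the 9 tested mucin probes in 4 comparisons, with bars for the 95% confidence interval of the limma fit and dotted lines at a fold change of 1.5 in each direction. The single called point is the dim MUC1 probe in 16HBE-ex14 minus 16HBE-WT without HGF, at -0.84. All 3 MUC4 probes lie right of 0 in every comparison, although with scaling to the array median A_24_P239176 and A_24_P239177 fell left of 0 in both HGF comparisons.

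MUC1 is the most widely expressed transmembrane mucin of simple epithelia, and its cytoplasmic tail can be phosphorylated by receptor kinases. Its brighter probe, A_23_P137856 at chr1:155158652-155159726 (hg19, minus strand), covers 1075 genomic bases and so draws its 60 letters from more than 1 exon, towards the 3′ end of the gene. In 16HBE-WT its levels were 0.38, 0.07, 0.72 and 0.47 on the 4 arrays. In 16HBE-WT+HGF they were -0.12, 0.15, -0.32 and 0.46. In 16HBE-ex14 they were -0.18, 0.13, -0.08 and 0.39, and in 16HBE-ex14+HGF they were -0.35, -0.33, -0.29 and -0.23.
The lowest mean was that of 16HBE-ex14+HGF, whose 4 arrays lay below all 4 of 16HBE-ex14. The other neighbouring groups overlapped, and 16HBE-WT+HGF replicate 3, at -0.32, lay among the arrays of 16HBE-ex14+HGF. The group means were 0.41 ± 0.27 in 16HBE-WT, 0.06 ± 0.25 in 16HBE-ex14, 0.04 ± 0.34 in 16HBE-WT+HGF and -0.30 ± 0.05 in 16HBE-ex14+HGF (SD, n = 4 each). Of the mucin probes 1 of 9 had groups that did not overlap for HGF in 16HBE-ex14, against 8.84% of all tested probes.
The HGF difference of this probe was -0.37 in 16HBE-WT (SE 0.17, limma adjusted p = 1) and -0.36 in 16HBE-ex14 (SE 0.17, limma adjusted p = 0.369), and neither was called. Averaged over both genotypes, a comparison added after the values were seen, it was -0.37 (95% CI -0.63 to -0.10, limma adjusted p = 0.151), which also missed the threshold. In that averaged comparison 0 of 9 mucin probes were called and 1 had an unadjusted p below 0.05. Of all probes 1.13% were called there and 15.1% had such a p. The HGF difference was below 0 on both slides in each genotype, from -0.21 to -0.53.

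The same MUC1 probe was lower in 16HBE-ex14 than in 16HBE-WT by similar amounts with and without HGF. The difference was -0.35 without HGF (limma adjusted p = 0.201) and -0.34 with HGF (limma adjusted p = 0.202). Averaged over both HGF states, again a comparison added later, it was -0.34 (95% CI -0.61 to -0.08, limma adjusted p = 0.0455), a fold change of 1.27 that stayed under the limit of 1.5. Leaving out 1 array at a time kept the direction in all 16 cases, but the adjusted p stayed below 0.05 in only 4 of them. Across all probes 32.6% had an adjusted p below 0.05 in the averaged comparison of the genotypes, so a small difference of this kind was common on these arrays.

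The second MUC1 probe, A_33_P3332215 at chr1:155161975-155162034 (hg19, minus strand), lies upstream of the first and was close to background, above it on 13 of 16 arrays. Its levels in 16HBE-WT were -3.69, -3.69, -3.04 and -3.94, all well above background. In 16HBE-ex14 they were -4.36, -4.67, -4.69 and -4.01, and the middle pair of these was not well above background. The 4 levels of 16HBE-ex14 were below all 4 of 16HBE-WT, with means of -4.43 ± 0.32 and -3.59 ± 0.39 (SD, n = 4 each).
The difference of -0.84 (SE 0.24, 95% CI -1.36 to -0.33, limma adjusted p = 0.024), a fold change of 1.8, was the one called mucin difference. It was -0.83 on one slide and -0.86 on the other. With HGF the levels were -3.48, -3.75, -3.99 and -3.74 in 16HBE-WT and -4.48, -3.85, -3.40 and -4.21 in 16HBE-ex14, which overlapped. The difference with HGF was -0.24 (95% CI -0.76 to 0.27, limma adjusted p = 0.547), with -0.55 on one slide and 0.06 on the other. HGF itself gave 0.45 in 16HBE-ex14 (limma adjusted p = 0.434). The difference between the 2 genotypes' HGF responses, 0.60 (95% CI -0.13 to 1.33), was not called, so the data do not show that the genotype difference depended on HGF.

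After scaling, levels near background were lower in 16HBE-ex14 as a whole, and this stands beside the MUC1 call. The 75th percentile subtracted from each array had a group median of 171.5 intensity units in 16HBE-WT and 232.2 in 16HBE-ex14 without HGF. With HGF these medians were 177.5 and 214.9. Before that subtraction the dim MUC1 probe overlapped without HGF. Its signals ran from 11.49 to 25.95 in 16HBE-WT and from 9.3 to 14.04 in 16HBE-ex14. The 17879 probes that were well above background on no array had a median difference of -0.26 between 16HBE-ex14 and 16HBE-WT without HGF and of -0.49 with HGF. The 6112 tested probes within 0.5 of the mean level of the dim MUC1 probe had a median of -0.16 without HGF, and 4.29% of them were called as lower against 1.98% as higher. The part of this shift, or of the percentile subtracted, in the MUC1 difference was not tested. The call was also lost without 16HBE-WT replicate 3 (-0.66, limma adjusted p = 0.0745), 16HBE-ex14 replicate 2 (-0.77, limma adjusted p = 0.0665) or 16HBE-ex14 replicate 3 (-0.76, limma adjusted p = 0.0703).

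The 3 genes whose levels over the 16 arrays were most like those of the dim MUC1 probe, each profile centred on its own mean, were C10orf67, FRY and TTLL9. Their root mean square differences from it were 0.21, 0.22 and 0.25, where its own SD over the arrays was 0.46 and the median difference of all tested probes from it was 0.53.

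**Figure D3:**
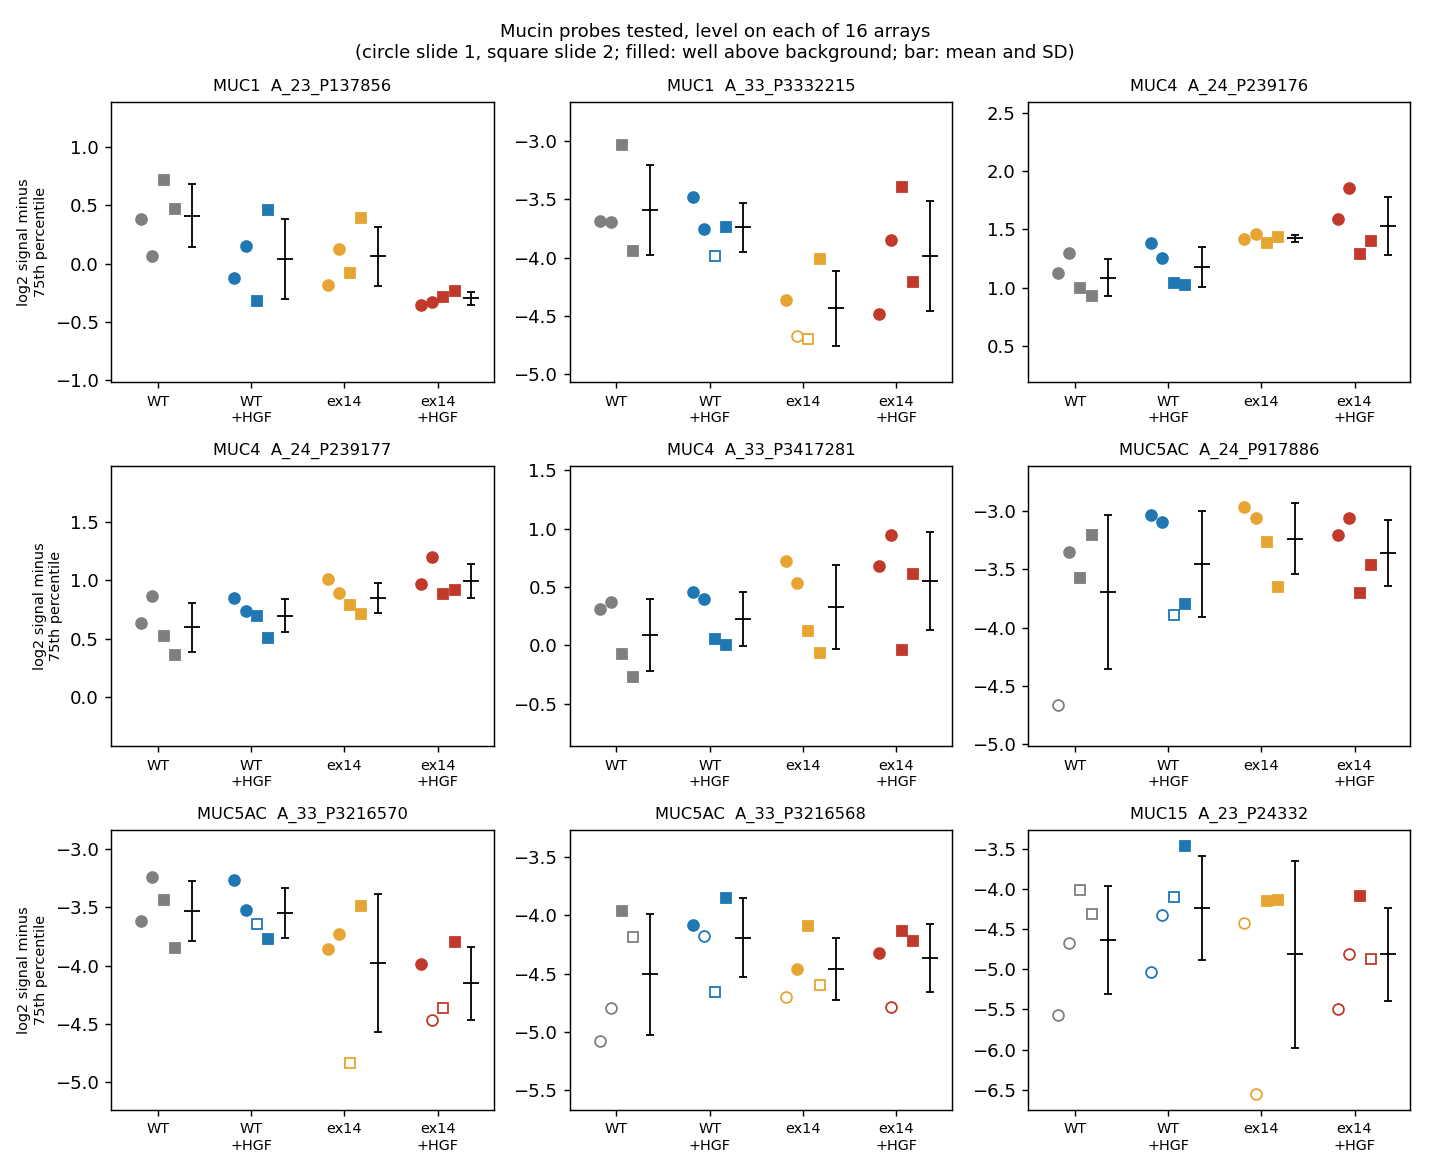
Level of each tested mucin probe on the 16 arrays (log2 signal minus the 75th percentile of the array), by group, with circles for slide 1 and squares for slide 2, filled where the spot was well above background, and bars for the mean and SD of 4 arrays. The MUC4 probes sit higher in the 16HBE-ex14 groups and on slide 1, and each of the MUC5AC and MUC15 probes holds open points.

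MUC4, a long transmembrane mucin of the airway surface, carries a large central exon made of tandem repeats of 48 bases. The 3 MUC4 probes that gave signal are repeat sequence: when the first 12 letters of each probe were set against its last 12, at an offset of 48 bases, 11, 11 and 10 letters matched. Only 25 of the 58201 probes (0.043%) matched at 10 or more of these 12 letters. The run CACGCCACCCCT was found, on either strand, in 3 probes of the array (0.00515%), all of them these MUC4 probes. A_24_P239176 (chr3:195515480-195515539, hg19, minus strand) and A_24_P239177 (chr3:195514780-195514839) shared a run of 40 letters, and A_24_P239177 and A_33_P3417281 (chr3:195506310-195506369) shared 21. The 3 probes are thus not independent measurements, and how many repeat copies each of them binds was not tested.

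In the direction of transcription the 3 repeat probes stand at 0, 0.7 and 9.17 kb and the fourth probe, A_24_P208825 (chr3:195474164-195474223), at 41.32 kb. The fourth probe holds none of the repeat letters marked in capitals, and it was well above background on 0 of 16 arrays. Its levels ran from -7.16 to -4.28. The MUC4 signal of these arrays therefore rests on repeat probes alone, and no probe outside the repeats measured the transcript.

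**Figure D4:**
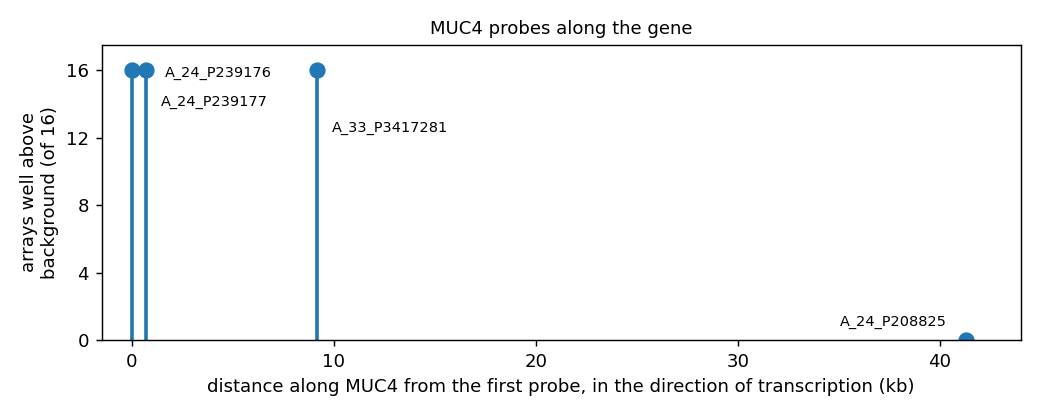
Distance of the 4 MUC4 probes from the first of them, in kb along the direction of transcription, against the number of arrays (of 16) on which each was well above background. The 3 repeat probes between 0 and 9.17 kb are at 16 and the probe at 41.32 kb is at 0.

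MUC4 repeat signal was slightly higher in 16HBE-ex14 cells. The levels of A_24_P239176 were 1.13, 1.29, 1.00 and 0.93 in 16HBE-WT. They were 1.42, 1.46, 1.39 and 1.43 in 16HBE-ex14, all above the 4 of 16HBE-WT. With HGF the levels were 1.39, 1.26, 1.04 and 1.02 in 16HBE-WT and 1.59, 1.86, 1.29 and 1.40 in 16HBE-ex14, where 1 array of 16HBE-WT+HGF lay above the lowest of 16HBE-ex14+HGF.
A_24_P239177 gave 0.63, 0.87, 0.53 and 0.36 in 16HBE-WT and 1.01, 0.89, 0.79 and 0.71 in 16HBE-ex14, which overlapped. With HGF it gave 0.85, 0.73, 0.70 and 0.51 in 16HBE-WT and 0.97, 1.20, 0.88 and 0.92 in 16HBE-ex14, and these did not overlap. Groups that did not overlap were counted for 2 of 9 mucin probes without HGF and 2 of 9 with HGF, against 21.4% and 23.9% of all tested probes.
A_33_P3417281 was the most spread of the 3, from -0.27 to 0.37 in 16HBE-WT and from -0.06 to 0.72 in 16HBE-ex14, and with HGF from 0.00 to 0.46 and from -0.04 to 0.95. Its spread followed the slides, with both arrays of slide 1 above both of slide 2 in each group.

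The genotype difference of A_24_P239176 was 0.34 without HGF (SE 0.13, limma adjusted p = 0.0848) and 0.36 with HGF (SE 0.13, limma adjusted p = 0.0633). Averaged over both HGF states, the comparison added later, it was 0.35 (95% CI 0.15 to 0.54, limma adjusted p = 0.00839), a fold change of 1.27. For A_24_P239177 the averaged difference was 0.28 (95% CI 0.09 to 0.46, limma adjusted p = 0.0219), and for A_33_P3417281 it was 0.28 (95% CI -0.06 to 0.63, limma adjusted p = 0.201). No MUC4 difference reached the fold change of 1.5 and none was called. The difference was above 0 on both slides for all 3 probes with and without HGF, from 0.20 to 0.45.
With slide as a term of the fit the adjusted p of A_24_P239176 became 0.0143 without HGF and 0.00913 with HGF, and that of A_24_P239177 became 0.0424 and 0.0181. Over the 11 other settings run, the limma adjusted p of A_24_P239176 was below 0.05 in 4 without HGF and 6 with HGF. For A_24_P239177 it was so in 3 and 4. With 1 of 16 arrays left out it was so in 0 and 2 cases for A_24_P239176 and in 0 and 0 for A_24_P239177. The HGF differences of the 3 probes were 0.09 to 0.14 in 16HBE-WT and 0.11 to 0.22 in 16HBE-ex14, and none was called. With the arrays scaled to their medians those of A_24_P239176 became -0.03 and -0.05, so HGF gave MUC4 no settled direction. Over the mean of both HGF states 5 of 9 mucin probes had an adjusted p below 0.05 with no limit on the fold, namely both MUC1 probes and the MUC5AC probe A_33_P3216570 as lower and both these MUC4 probes as higher. As 32.6% of all probes passed that limit, the share of mucin probes is not read as a finding, and with the limit on the fold 0 of 9 were called there against 11.3% of all probes.

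MUC5AC, the gel-forming mucin of goblet cells of the surface epithelium, was near background and its 3 probes did not move together. A_33_P3216570 (chr11:1167234-1167293, hg19, plus strand) gave -3.27, -3.52, -3.64 and -3.77 in 16HBE-WT+HGF and -3.98, -4.47, -4.36 and -3.80 in 16HBE-ex14+HGF. The 4 arrays of 16HBE-ex14+HGF thus lay below the 4 of 16HBE-WT+HGF, at the closest -3.80 against -3.77. Before the percentile was subtracted the signals overlapped, from 11.16 to 19.52 in 16HBE-WT+HGF and from 9.116 to 16.61 in 16HBE-ex14+HGF. This probe was well above background on 3 arrays of 16HBE-WT+HGF and on 2 of 16HBE-ex14+HGF. The difference of -0.60 (SE 0.25, 95% CI -1.14 to -0.07) had a limma adjusted p of 0.11 and was not called, and it was called without 16HBE-ex14 replicate 3 (-0.60, limma adjusted p = 0.0253), an array of neither group compared. Without HGF the difference was -0.44 (limma adjusted p = 0.263). On the separate slides the differences were -0.36 and -0.52 without HGF and -0.83 and -0.37 with HGF.
A_24_P917886 differed by 0.46 without HGF (limma adjusted p = 0.335) and 0.10 with HGF (limma adjusted p = 0.87). Its lowest array was 16HBE-WT replicate 1, at -4.66 and not well above background, and the difference without HGF was 0.99 on the slide of that array and -0.07 on the other. A_33_P3216568 (chr11:1161827-1161886) was well above background on 8 of 16 arrays and differed by 0.04 without HGF and -0.18 with HGF (limma adjusted p = 0.939 and 0.688). The 3 MUC5AC probes thus differed in sign between the genotypes, but this rested on the background correction. After normexp correction all 3 were lower in 16HBE-ex14 in both HGF states, with averaged differences of -0.14 for A_24_P917886 (limma adjusted p = 0.0378), -0.29 for A_33_P3216570 (0.000745) and -0.25 for A_33_P3216568 (0.000693), each under the limit on the fold. The median of all tested probes was also lower under that correction, at -0.14 in the averaged comparison.

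MUC15 and MUC20 were at the edge of detection. MUC15, a transmembrane mucin whose probe A_23_P24332 lies at chr11:26582464-26582523 (hg19, minus strand), was well above background on 0 arrays of 16HBE-WT and 2 of 16HBE-ex14, and with HGF on 1 array of each. Its levels ran from -5.57 to -4.02 in 16HBE-WT and from -6.55 to -4.14 in 16HBE-ex14, and with HGF from -5.04 to -3.46 and from -5.50 to -4.08, so the groups overlapped. Its differences ran from -0.58 to 0.41 with limma adjusted p values of 0.499 to 1. Each had an SE of 0.52, and the interval for the genotypes with HGF was -1.70 to 0.53. After normexp correction MUC15 was lower in 16HBE-ex14 by 0.32 with HGF (limma adjusted p = 0.0261), under the limit on the fold. Its averaged difference was then -0.28 (limma adjusted p = 0.00514), where the median of all tested probes was -0.14. Against the lowest measurable level no fold above 1 could be given for MUC15.
MUC20, the MET-binding mucin, has 1 probe at chr3:195464463-195464522 (hg19, plus strand), next to MUC4 on the chromosome. It was well above background on 1 array, 16HBE-ex14 replicate 1 at -4.33, and not tested. Its levels elsewhere ran from -6.69 to -4.35. A difference in MUC20 between these groups was not detectable at this signal.

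The mucin probes below background on every array gave low values in all groups. The MUC13 probe lay at -6.84 to -4.61, the MUC5B probe at -6.55 to -4.38 and the MUC16 probes at -6.73 to -4.88 and -6.67 to -5.72. MUC16 is the largest transmembrane mucin, whose shed form is the tumour marker CA125, and MUC13 is best known from the gut epithelium. Without HGF the 4 arrays of 16HBE-ex14 lay below all 4 of 16HBE-WT for MUC13 (-6.57 to -6.45 against -6.18 to -4.61) and for both MUC16 probes (-6.73 to -6.47 against -6.41 to -5.98 for A_23_P5211, -6.67 to -6.55 against -6.50 to -6.22 for A_33_P3313110). Of all tested probes 21.4% had groups that did not overlap in that comparison. That share was not counted for probes below background, so the separation is not read as a finding. These values lie where probes below background shifted by a median of -0.26 between the same groups, with 82.2% of them lower in 16HBE-ex14. No fold change was taken between these groups. Before the percentile of each array was subtracted, the signals overlapped for all 3 probes. For MUC13 they ran from 2.151 to 8.727 in 16HBE-WT and from 2.225 to 2.664 in 16HBE-ex14. For A_23_P5211 these ranges were 2.08 to 2.72 and 2.048 to 2.61, and for A_33_P3313110 1.957 to 2.818 and 2.093 to 2.457. The part of the percentile in the separation was not tested. With HGF the groups overlapped for these 3 probes, and the MUC5B probe overlapped in both states.

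Of the enzymes that build the O-glycans of mucins, GALNT1 and GCNT1 were higher and FUT2 was lower in 16HBE-ex14 both without and with HGF. Of 26 such enzymes 21 were well above background on all 16 arrays and 23 were tested, each by its brightest probe. Without HGF 2 were called as higher and 4 as lower in 16HBE-ex14, and 17 were not called, where 9.4% of all probes were called and 4.89% were called as lower. The median difference of the 23 was -0.07, against -0.02 for all tested probes.
GALNT1, which adds the first GalNAc of an O-glycan, had levels of -1.62, -1.25, -1.25 and -1.16 in 16HBE-WT and 0.07, 0.14, 0.16 and 0.07 in 16HBE-ex14. It rose by 1.43 (SE 0.13, limma adjusted p = 5.36e-06), and its other probe was called too. GCNT1, which makes the core 2 branch, rose by 1.02 (SE 0.16, limma adjusted p = 0.000453), a difference that was 0.25 and not called after normexp background correction.
FUT2, which adds the fucose of the secretor type, fell by 1.28 (SE 0.30, limma adjusted p = 0.00881), from a mean of -1.44 ± 0.36 to -2.72 ± 0.45 (SD, n = 4 each). The calls of GALNT1 and FUT2 were kept in all 27 other settings run. FUT3, the Lewis fucosyltransferase, fell by 0.80 (SE 0.15, limma adjusted p = 0.00188), from 3.85 ± 0.13 to 3.05 ± 0.33. GALNT12, a further initiating enzyme, fell by 1.00 (SE 0.18, limma adjusted p = 0.00122), a difference that was -0.55 and not called after normexp correction. GALNT5, another of that family, fell by 1.39 (SE 0.41, limma adjusted p = 0.0273), but was well above background on 3 arrays of 16HBE-WT and 1 of 16HBE-ex14. Its call was kept in 19 of 26 other settings and lost after normexp correction, with no filter on dim probes, with the compared groups alone, and without replicate 1 or 4 of 16HBE-WT or replicate 2 or 3 of 16HBE-ex14.

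With HGF 3 of the 23 enzymes were called as higher and 1 as lower in 16HBE-ex14, where 10.8% of all probes were called, with a median of 0.05 against -0.00 for all probes. GALNT1 rose by 1.12 and GCNT1 by 1.02 (0.28 and not called after normexp correction), joined by the sialyltransferase ST3GAL2 at 0.63 (limma adjusted p = 0.00703). The ST3GAL2 call was lost after normexp correction, without 16HBE-WT+HGF replicate 1 and without replicate 3 or 4 of 16HBE-ex14+HGF. FUT2 fell by 1.54 (SE 0.30, limma adjusted p = 0.00232). HGF itself gave 1 called enzyme of 23 in 16HBE-ex14, where 2% of all probes were called. It was ST6GALNAC2, which adds sialic acid to the GalNAc core. It fell by 0.66 (SE 0.17, limma adjusted p = 0.0468) and was close to the limit, with the call kept in 9 of 27 other settings. In 16HBE-WT 0 of 23 enzymes were called by limma and 4 had an unadjusted p below 0.05. Of all probes 0% were called there and 4.9% had such a p.

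**Figure D5:**
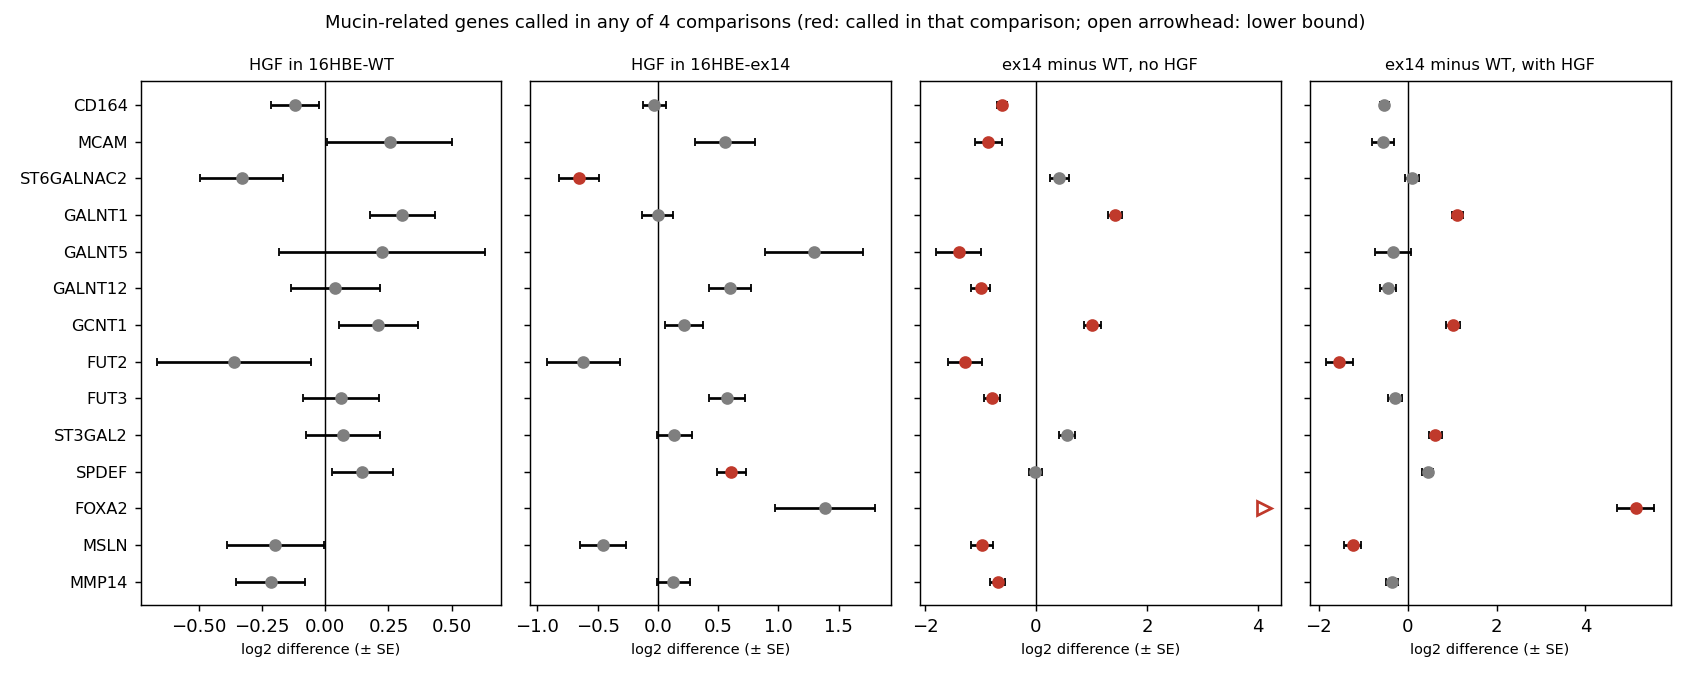
Log2 differences with SE of the 14 mucin-related genes called in at least 1 of 4 comparisons, 1 panel for each comparison with its own axis. The open arrowhead is the lower bound of FOXA2 without HGF, at 4.12, and FOXA2 has no point for HGF in 16HBE-WT, where 16HBE-WT was not well above background. With HGF FOXA2 stands at 5.13, GALNT1 and GCNT1 lie to the right of 0 and FUT2 and MSLN to the left in both genotype panels, and SPDEF is called in the panel of HGF in 16HBE-ex14.

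Genes of the goblet and secretory programme showed a single difference between the genotypes. Of 17 genes on the array 12 were tested, and 1 was called as higher in 16HBE-ex14 both without and with HGF, where 9.4% and 10.8% of all probes were called. That gene was FOXA2, a forkhead factor known to restrain mucus production in the airway. Its levels were 1.06, 1.21, 1.75 and 1.49 in 16HBE-ex14+HGF and -0.11, -0.44, 0.67 and -0.16 in 16HBE-ex14. In 16HBE-WT it was well above background on 0 of 4 arrays, with levels of -6.24 to -3.99, and in 16HBE-WT+HGF on 3 of 4, with levels of -4.06 to -3.26. Under the main processing FOXA2 was at least 17.4-fold higher in 16HBE-ex14 without HGF. This bound was set against the higher of the probe and the lowest signal above background on each array. The limma adjusted p of 5.11e-06 belongs to the difference taken without the bound. With HGF the FOXA2 difference was 5.13 on the log2 scale (SE 0.41, limma adjusted p = 1.57e-06). FOXA2 was called in all 26 other settings run for each of these comparisons. Its differences there were 2.78 to 5.30 with HGF and 1.79 to 4.84 without HGF. The smallest without HGF, 1.79, lay below the bound, which is 4.12 on the log2 scale. Its HGF difference in 16HBE-ex14, 1.39 (SE 0.41, limma adjusted p = 0.0998), was not called.
SPDEF, the factor that drives goblet cell differentiation, gave -2.29, -2.68, -2.42 and -2.48 in 16HBE-ex14 and -1.91, -1.76, -1.67 and -2.09 in 16HBE-ex14+HGF. It rose with HGF by 0.61 (SE 0.12, limma adjusted p = 0.0137), the 1 call among 12 genes of the list where 2% of all probes were called, and the call was kept in 19 of 27 other settings and lost under 3 other scalings of the arrays, after normexp correction, with the compared groups alone, and without 16HBE-ex14 replicate 2 or replicate 2 or 3 of 16HBE-ex14+HGF. In 16HBE-WT the HGF difference of SPDEF was 0.15 (limma adjusted p = 1). FOXA3, a further goblet cell factor, was not called in any of the 4 comparisons, with differences from -0.42 to 0.14. Of the 17 genes 7 were well above background on all 16 arrays, among them the trefoil peptide gene TFF1, the secretoglobins SCGB1A1 and SCGB3A1, the factor CREB3L1 and the stress sensor ERN2. SCGB3A1 was bright, with group means of 5.17 to 5.40, and TFF1 had group means of -2.16 to -1.72. FCGBP, a mucus protein, was well above background on 14 arrays. ITLN1, BPIFB1 and the receptor gene PIGR were well above background on 0 of 16 arrays, and AGR2, a chaperone for mucin folding, on 1.

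Partners of transmembrane mucins and the enzymes that shed them were all detected, 8 of 8 on every array. Without HGF 0 were called as higher and 2 as lower in 16HBE-ex14, where 4.89% of all probes were called as lower, with a median of -0.35 against -0.02 for all probes. MSLN, or mesothelin, the ligand of MUC16, fell by 0.98 (SE 0.19, limma adjusted p = 0.00269), and MMP14, a membrane protease that can shed MUC1, fell by 0.69 (SE 0.14, limma adjusted p = 0.00259). The MMP14 call was lost after normexp correction and with scaling to the array median, while that of MSLN was kept in all 27 other settings. With HGF MSLN fell by 1.24 (SE 0.19, limma adjusted p = 0.000409) and was the 1 gene of 8 called, where 10.8% of all probes were called, with a median of -0.43. ADAM17, the best known MUC1 sheddase, differed by -0.50 without HGF (limma adjusted p = 0.00454) and -0.51 with HGF (limma adjusted p = 0.00355), under the limit on the fold. ERBB2, the partner of MUC4, differed by 0.27 and -0.02 (limma adjusted p = 0.0556 and 0.924). LGALS3, the galectin that binds MUC1, was not called in any of the 4 comparisons, with differences from -0.22 to 0.18.

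Among 14 other mucin and mucin-like genes 5 were well above background on all 16 arrays and 3 on none. Of 9 tested, 0 were called as higher and 2 as lower in 16HBE-ex14 without HGF, where 4.89% of all probes were called as lower. With HGF 0 were called by limma and 4 had an unadjusted p below 0.05, where 31.7% of all probes had such a p. Averaged over both HGF states 2 were called as lower, where 11.3% of all probes were called. The 2 genes called as lower without HGF were CD164, a sialomucin of the cell surface, and MCAM, a mucin-like adhesion molecule. Without HGF CD164 fell by 0.61 (SE 0.10, limma adjusted p = 0.000505) and MCAM by 0.86 (SE 0.25, limma adjusted p = 0.0251). Both calls were lost after normexp correction, with scaling to the E1A spike-ins and without 16HBE-WT replicate 3. That of CD164 was also lost with scaling to the array median, and that of MCAM with the compared groups alone and without 16HBE-WT replicate 2 or 16HBE-ex14 replicate 2, its difference being -0.44 at its smallest. The intestinal gel-forming MUC2 was on all arrays and differed by -0.12 and 0.26 without and with HGF, which was not called.

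The cells carried the markers of their label. All 8 epithelial markers were well above background on all 16 arrays, with a summed level of 1790 to 2220 times the 75th percentile and 0 called between any groups. Of 8 ciliated cell markers 3 were on all arrays and TEKT1, DNAI1 and CCDC39 on none, and their summed level was 0.802 to 1.17. Of 8 fibroblast markers 2 were on all arrays and COL1A2, COL3A1, DCN, PDGFRA and THY1 on none. The summed fibroblast level was 0.577 to 1.10 in 16HBE-WT and 0.355 to 0.528 in 16HBE-ex14. LUM was the 1 of these genes called. Under the main processing it was at least 3.06-fold lower in 16HBE-ex14 without HGF and at least 2.23-fold lower with HGF. It was called in all 26 other settings of both comparisons. Its smallest differences there, -0.83 without HGF and -0.70 with HGF on the log2 scale, were smaller than these bounds. Of 6 blood cell markers on the array 4 were on all arrays, with a summed level of 0.896 to 1.59, and CD3E was called as lower in 16HBE-ex14 without HGF (-0.98), a call kept in 21 of 27 other settings and lost after normexp correction and without 16HBE-WT replicate 1 or 2 or 16HBE-ex14 replicate 2, 3 or 4. The part of these markers in the genotype differences above was not tested. The MET probe, which does not lie in the skipped exon and so checks no label, differed by 0.14 and 0.16 between the genotypes and was not called.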

How the data were processed

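Labelled RNA of 16 samples was hybridised to one-colour arrays of 62976 spots. The intensity values deposited by the authors are processed signals from Agilent Feature Extraction 10.7.3.1, which are linear, background-subtracted and unscaled. Their table over the whole series equals the files of the single arrays at all 62976 spots, within a relative tolerance of 1e-06. From these intensities log2 values were taken in R 4.3.3, the 75th percentile of the 60901 spots without controls was subtracted per array, spots marked as outliers were left out, and spots of a probe were averaged. limma 3.58.1 was fitted with 1 mean per group over all 16 arrays, after a filter (well above background on at least 4 arrays), for 5 contrasts, with Benjamini-Hochberg adjustment over the 34604 probes of a contrast. The limits of 0.05 and 1.5 are those of the study. The number of arrays limits the precision. Of 15 mucin probes 14 had an accession in the RefSeq gene table under the same symbol, and probe positions are on hg19 as the files give them. The sequence and position of 1 MUC5AC probe are not reported here. The fit was tested on simulated data. Figures were drawn with Python 3.11.15, matplotlib 3.10.9 and pandas 2.3.3.

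The members and gene lists were chosen with earlier results of these data known. All probes of the 8 mucins were named, then the 3 genes most like each called mucin probe, and from each related list the called genes, up to 4 per direction, with SPDEF, FOXA3, LGALS3 and MET, each gene by its brightest tested probe. Other genes were named after their values were seen. Alternatives were normexp correction with an offset of 50, quantile, median and E1A spike-in scaling, no filter or all arrays above background, keeping outlier spots, a block for slide or for array row, only the compared groups, a trended robust prior, no fold limit, and each array left out.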

Additional observations from a re-analysis of the deposited data

Results flagged for a closer look

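Of 36 groups of 4 arrays examined for the tested mucin probes, 1 held an array far from the rest. It was MUC15 in 16HBE-ex14 replicate 2, at -6.55 where the nearest array was at -4.42, a gap of 0.883 of the range of the group, above Dixon's critical value for 4 samples. The spot was not well above background, and chance alone gives about 1 such group in 20. Without that array MUC15 was still not called in any comparison.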

How the results depend on the processing

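The genotype differences without HGF of both MUC1 probes, the MUC4 probes A_24_P239176 and A_24_P239177 and the MUC5AC probe A_33_P3216570 kept their sign in all alternatives run. Other signs turned with the scaling, none of them of a called difference. Scaling to the array median, under which the median HGF difference of all tested probes was -0.08 in 16HBE-WT and -0.11 in 16HBE-ex14, turned 2 and 3 of 9 HGF differences there, with MUC4 A_24_P239176 at -0.03 and -0.05 and A_24_P239177 at -0.02 in both. Normexp correction turned the HGF difference of MUC5AC A_33_P3216570 in 16HBE-WT to 0.07, and the genotype differences without HGF of MUC5AC A_24_P917886 to -0.09 and A_33_P3216568 to -0.23. Quantile normalization turned the averaged HGF difference of the dim MUC1 probe to -0.02. For 16HBE-ex14 against 16HBE-WT without HGF the number of called mucin probes was 1, the dim MUC1 probe, and became 0 with normexp correction (-0.37, under the fold limit), with scaling to the 8 E1A spike-in probes (-0.74, adjusted p = 0.0609) and with the filter of all arrays above background, which leaves that probe out. Leaving out 1 array at a time gave 0 to 1 there and 0 to 1 with HGF, where the MUC5AC probe A_33_P3216570 was called without 16HBE-ex14 replicate 3. The HGF comparison within each genotype and the difference of the HGF responses gave 0 called mucin probes in all alternatives. With array row as a replicate block the MUC1 difference was -0.84 (adjusted p = 0.038) and 1 mucin probe was called without HGF and 0 elsewhere. Rows do not mark a shared culture in the sources, and deviations of arrays of the same row correlated (median r = 0.205) no more than those of other rows of the same slide (0.212), while across slides the median was -0.197. The MUC4 difference of A_24_P239176 stayed between 0.28 and 0.47 without HGF. Scaling moved the median of all tested probes, without HGF, from -0.02 to 0.12 (array median), 0.09 (E1A) and -0.13 (normexp). Over all probes, calls between the genotypes without HGF went from 3253 (48% of them higher in 16HBE-ex14) to 1490 (60%) with normexp, 3678 (71.8%) with the array median, 3359 (67.3%) with E1A and 6349 with no fold limit. With HGF they went from 3752 (49%) to 1818 with normexp, 3837 (66%) with the array median, 3595 (59.6%) with E1A and 7128 with no fold limit. HGF calls in 16HBE-ex14 went from 693 (52.2% higher) to 411 with normexp, 730 (24.1%) with the array median, 503 (41.4%) with E1A and 246 with the compared groups alone, and to 346, 374 and 377 without 16HBE-ex14 replicate 2, 16HBE-ex14 replicate 4 and 16HBE-ex14+HGF replicate 3. Signal over background limits MUC5AC, MUC15 and MUC20 and leaves MUC5B, MUC13 and MUC16 unmeasured.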
